A study of Drosophila melanogaster with 9 samples.

Results

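The strain difference in testis microRNAs of Drosophila melanogaster was examined between the Z56 and Canton-S genotypes, with 1 small RNA library each, out of 9 libraries in the series. Z56 testes were the first group and Canton-S testes, from a common laboratory wild type, the second. The flies of both groups were adults 3 to 5 days old, cultured at 25 °C, and the labels name no transgene, mutation or treatment in either. Libraries of Z56 ovaries, Canton-S ovaries and Canton-S carcass, also 1 each, were used beside them. The RNA-seq libraries of the miR-310 cluster mutant and its control were not used here. Rows were matched by mature microRNA and precursor and each mature microRNA was taken once, which gave 465 mature microRNAs from 476 rows. The labels do not say how many animals were pooled.

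MicroRNAs are short RNAs cut from a hairpin precursor, whose 5p or 3p arm is loaded into an Argonaute protein and pairs with messenger RNAs, mostly through a short seed near its 5′ end. Neighbouring hairpins are often cut from a shared transcript, and the arm that is kept in larger amount differs between precursors. The Drosophila testis is known for clusters of microRNAs that evolve fast and are scarce in other tissues. The miR-310 cluster, from miR-310 to miR-313, has 3p arms with the seed of miR-92a and miR-92b.

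The Z56 testis library held 1393727 microRNA reads and the Canton-S testis library 1408300 reads, so a count of 0 allows up to 2.15 RPM in Z56 and 2.13 RPM in Canton-S, the level of 3 reads. RPM is reads scaled to a library total, as deposited. Reads were found for 250 microRNAs in both libraries, for 19 in Z56 alone and for 31 in Canton-S alone, while 165 had none in either. MicroRNAs with at least 10 reads in at least 1 of the libraries were compared, which kept 204. Of these, 175 reached 10 reads in both libraries, 15 in Z56 alone and 14 in Canton-S alone. With 1 library a strain there is no replicate check and no test. The intervals given are exact conditional 95% intervals of the ratio and reflect counting error alone. They treat each read as independent, which PCR duplicates are not, so they can be too narrow even for counting error. The 4 clusters typical of testis made up 9.50% of reads in Z56 testes and 10.9% in Canton-S testes, against 0.0629% in Z56 ovaries and 0.0567% in Canton-S ovaries, so markers of the labelled tissue were present in both. The Canton-S testis reads were available to the submitters only after adapter trimming, masking and collapsing, and no such note is given for Z56. In testes, strain and this handling therefore cannot be told apart.

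The most abundant microRNAs were much alike in the strains. The muscle microRNA miR-1-3p stood at 195869 RPM in Z56 testes and 180726 RPM in Canton-S testes. miR-275-3p stood at 157947 RPM in Z56 and 160916 RPM in Canton-S testes. let-7-5p, a timer of late development, stood at 130267 RPM in Z56 and 134535 RPM in Canton-S testes. These 3 microRNAs held the same ranks in the libraries and differed by less than 1.1-fold. miR-34-5p, which is known from the ageing brain, had 71279 RPM in Z56 and 95873 RPM in Canton-S testes. miR-184-3p, a regulator of the female germ line, had 61962 RPM in Z56 and 87635 RPM in Canton-S testes. Both were lower in Z56, by 1.35-fold and 1.41-fold. The 10 most abundant microRNAs took 74.6% of Z56 reads and 77.3% of Canton-S reads, and the sets shared 9 members. miR-31a-5p, miR-31b-5p, miR-312-3p and miR-982-5p completed the shared 9, at 1.48-fold, 1.05-fold, 1.23-fold and 1.08-fold higher in Z56. Ratios as small as those of miR-1-3p, miR-31b-5p and miR-982-5p turned to the other side when the 10 most abundant microRNAs were left out of the totals. miR-986-5p was the member found in the Z56 set alone, at rank 10 against rank 56 in Canton-S testes. miR-985-3p was the member found in the Canton-S set alone, at rank 14 in Z56 against rank 7 in Canton-S testes, with 12826 RPM in Z56 and 22879 RPM in Canton-S.

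Of the 204 microRNAs compared, 52 (25.5%) differed by at least 2-fold, 35 (17.2%) higher and 17 (8.33%) lower in Z56 testes. With the 10 most abundant microRNAs left out of the library totals, the split was 28 higher and 26 lower. The median log2 ratio of all 204 was 0.07, with quartiles at -0.44 and 0.47. In 30 of the 52 the whole counting interval lay past 2-fold, and in 3 it included no difference. The microRNAs that reached 10 reads in a single library, 29 in all, supplied 21 of the 52, as the minimum itself favours a difference there. Of the 175 that reached it in both libraries, 23 were higher and 8 lower. The 35 higher microRNAs together made up 6.01% of Z56 reads and 1.22% of Canton-S reads. The 17 lower ones made up 0.411% of Z56 reads and 1.66% of Canton-S reads. The correlation of log2(RPM + 1) across the 204, which are not independent replicates, was 0.936.

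**Figure D1:**
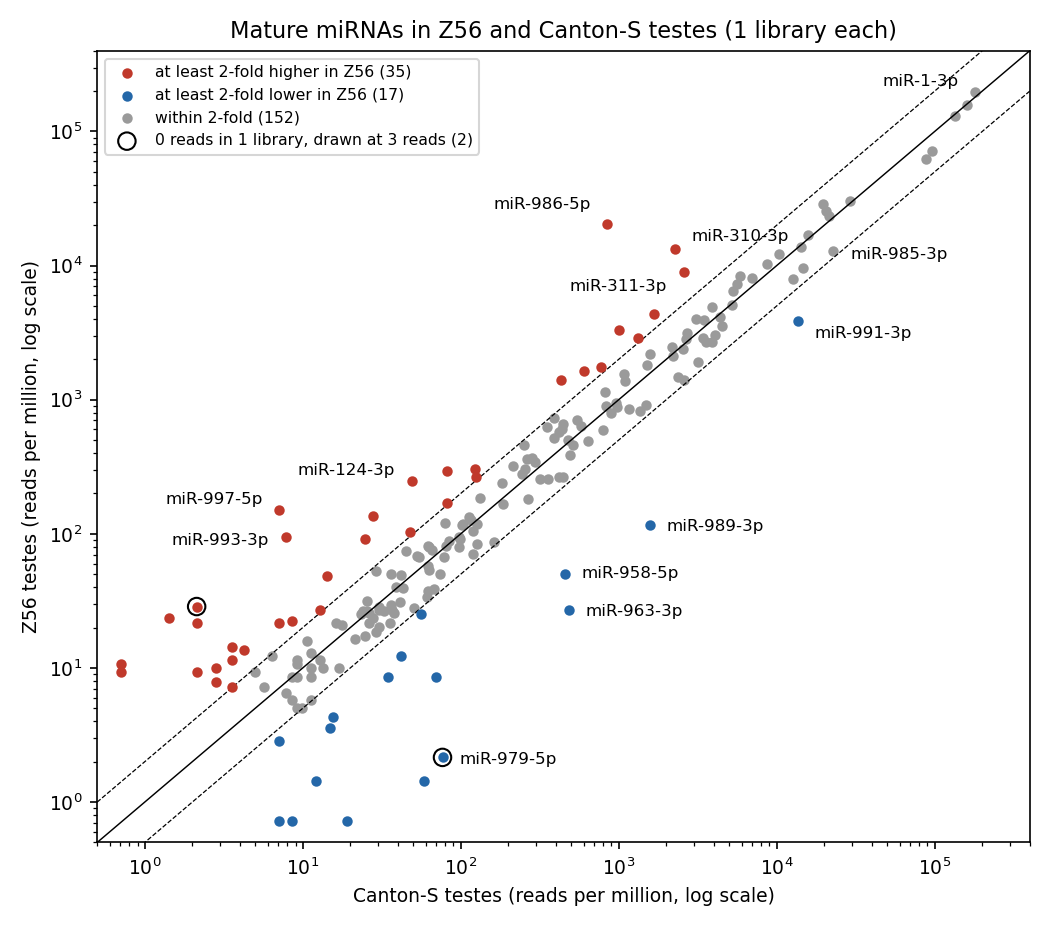
RPM of 204 mature microRNAs in Z56 testes (vertical, log scale) and Canton-S testes (horizontal, log scale), 1 library each; each dot is a microRNA, the solid line marks equal values and the dashed lines 2-fold differences. The most abundant microRNAs lie near the line, with miR-986-5p, miR-310-3p and miR-311-3p above it and miR-991-3p, miR-989-3p, miR-958-5p and miR-963-3p below it.

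The largest difference among abundant microRNAs was that of miR-986-5p. It had 28450 reads (20413 RPM) in Z56 testes, against 1193 reads (847 RPM) in Canton-S testes, 24.1-fold higher (interval 22.7 to 25.6). The other arm, miR-986-3p, had 188 reads in Z56 and 39 reads in Canton-S testes, 4.87-fold higher (3.44 to 7.07). Both arms of this precursor thus stood higher in Z56, and together they were 23.5-fold higher. In ovaries miR-986-5p had 11080.5 RPM in Z56 and 1952 RPM in Canton-S, and in Canton-S carcass it had 607 RPM.

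Several less abundant microRNAs also stood higher in Z56 testes. miR-997-5p had 210 reads in Z56 and 10 reads in Canton-S testes, 21.2-fold higher (11.3 to 44.9), while miR-997-3p had 24 reads in Z56 and 35 reads in Canton-S. Neither ovary library held a read of miR-997-5p. miR-993-3p had 95.4 RPM in Z56 and 7.81 RPM in Canton-S testes, on 11 reads in Canton-S, and miR-993-5p had 30 reads in Z56 and 3 reads in Canton-S. The 2 arms of miR-993 were 12.2-fold (6.61 to 25.1) and 10.1-fold (3.14 to 51.7) higher. miR-124-3p, which is specific to the nervous system, had 346 reads in Z56 and 69 reads in Canton-S testes, 5.07-fold higher (3.90 to 6.66). All 3 mature forms of miR-281 were higher in Z56. miR-281-2-5p had 4639 reads in Z56 and 1409 reads in Canton-S testes (3.33-fold), miR-281-1-5p 422 reads in Z56 and 173 reads in Canton-S (2.46-fold), and miR-281-3p 67 reads in Z56 and 20 reads in Canton-S (3.39-fold, 2.03 to 5.89). The 5p forms come from near-identical hairpins, between which the counting could split reads. miR-252-5p had 1939 reads in Z56 and 611 reads in Canton-S testes, 3.21-fold higher (2.93 to 3.52).

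Of the 17 microRNAs lower in Z56, 7 had a mean below 20 RPM over the testis libraries and 1, miR-991-3p, had a mean above 1000 RPM. miR-989-3p, known from follicle cells of the ovary and border cell migration, had 162 reads (116 RPM) in Z56 testes and 2220 reads (1576 RPM) in Canton-S testes, 13.6-fold lower in Z56. Its other arm miR-989-5p had 1 read in Z56 and 10 reads in Canton-S testes. The other ovary markers were at or near 0 in both testis libraries, with miR-994-5p at 1 read in each testis library and miR-318-3p at 2 reads in Z56 and 0 reads in Canton-S. In ovaries those markers were abundant, miR-994-5p at 10641 RPM in Z56 and 8251 RPM in Canton-S. miR-958-5p had 70 reads in Z56 and 645 reads in Canton-S testes, 9.12-fold lower in Z56 (7.12 to 11.8). miR-958-3p had 2 reads in Z56 and 83 reads in Canton-S, so both arms were lower. miR-927-5p had 1 read in Z56 and 27 reads in Canton-S testes, a ratio of 26.7-fold whose interval ran from 4.40 to 1094. miR-14-5p, an arm of a precursor known for its part in fat metabolism, had 1971 reads in Z56 and 3673 reads in Canton-S (1.84-fold lower), short of 2-fold but past it, at a log2 ratio of -1.09, without the 10 most abundant microRNAs in the totals. miR-279-3p, miR-190-5p, miR-312-5p and miR-985-3p, which completed the 10 largest ratios in this direction by their counting bounds, had log2 ratios from -0.68 to -0.83, so 5 of those 10 lay within 2-fold.

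The miR-310 cluster was higher in Z56 testes as a sum. Its 8 arms made up 5.53% of reads in Z56 (5.49 to 5.57, exact Clopper-Pearson 95% interval) and 3.27% in Canton-S testes (3.25 to 3.30), a ratio of 1.69. Of the 8, 4 were at least 2-fold higher and 0 lower, against 17.2% higher and 8.33% lower among all 204. With TMM scaling the split was 3 higher and 1 lower, and without the 10 most abundant microRNAs in the totals it was 2 higher and 1 lower. Their median log2 ratio was 0.70, against 0.07 for all. This median was 0.49 without the 10 most abundant microRNAs in the totals and 0.30 over arms with at least 100 reads in 1 library. The 3p arms carried the difference. miR-310-3p had 18523 reads (13290.3 RPM) in Z56 testes and 3200 reads (2272 RPM) in Canton-S testes, 5.85-fold higher (5.63 to 6.07). miR-311-3p had 12421 reads in Z56 and 3648 reads in Canton-S, 3.44-fold higher (3.32 to 3.57). miR-312-3p, the most abundant arm in both strains, had 35340 reads in Z56 and 28929 reads in Canton-S and was 1.23-fold higher. The scarce miR-313-3p had 38 reads in Z56 and 18 reads in Canton-S (2.13-fold, 1.19 to 3.97), a log2 ratio of 1.09 that was 0.98 with TMM scaling. Members of the cluster have similar sequences, so the counting could have split reads between their 3p arms. The sum of the 4 3p arms, which does not depend on such a split, was 66322 reads in Z56 and 35795 reads in Canton-S testes, 1.87-fold higher (1.85 to 1.90).

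The 5p arms of the cluster had no common direction. miR-313-5p had 4027 reads in Z56 and 1875 reads in Canton-S testes, 2.17-fold higher (2.05 to 2.29), a log2 ratio of 1.12 that was 0.91 without the 10 most abundant microRNAs in the totals. miR-311-5p had 3985 reads in Z56 and 3747 reads in Canton-S, a log2 ratio of 0.10 whose sign changed with TMM scaling or without the 10 most abundant microRNAs in the totals. miR-312-5p had 2643 reads in Z56 and 4470 reads in Canton-S, and miR-310-5p had 122 reads in Z56 and 228 reads in Canton-S, so these stood 1.67-fold and 1.85-fold lower. miR-310-5p passed 2-fold with TMM scaling and, at a log2 ratio of -1.09, without the 10 most abundant. Summed, the 5p arms were at 0.773% in Z56 and 0.733% in Canton-S testes.

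The relatives miR-92a and miR-92b moved in the direction of the 3p arms. miR-92a-3p had 2283 reads (1638 RPM) in Z56 and 847 reads (601 RPM) in Canton-S testes, 2.72-fold higher (2.52 to 2.95). miR-92b-3p had 866 reads in Z56 and 494 reads in Canton-S, 1.77-fold higher, and miR-92a-5p 728 reads in Z56 and 545 reads in Canton-S, 1.35-fold higher. miR-92b-5p, at 4 reads in Z56 and 3 reads in Canton-S, was not compared. The 6 3p arms that share the seed added up to 4.98% of reads in Z56 and 2.64% in Canton-S testes, a ratio of 1.89 (1.87 to 1.91).

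**Figure D2:**
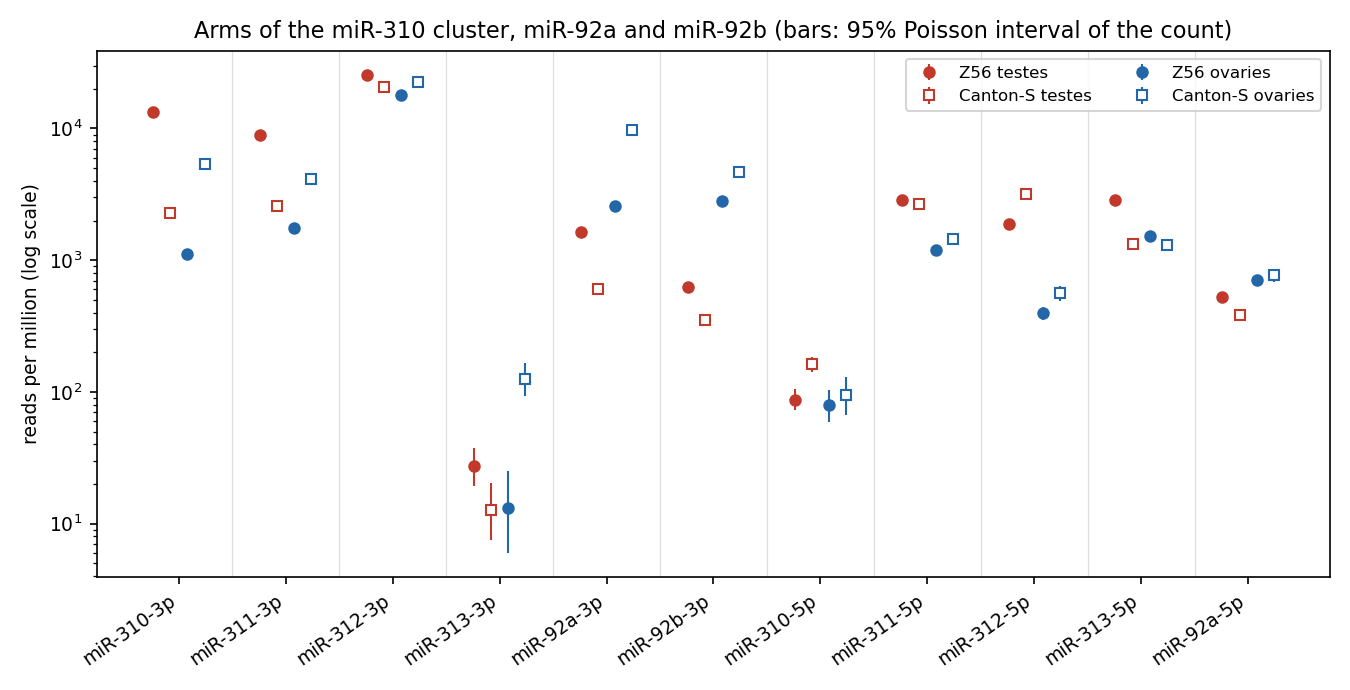
RPM (log scale) of the arms of the miR-310 cluster, miR-92a and miR-92b in Z56 testes, Canton-S testes, Z56 ovaries and Canton-S ovaries, 1 library each; bars are 95% Poisson intervals of the count and are often smaller than the symbol. For all 6 3p arms shown the Z56 symbol lies above Canton-S in testes and below it in ovaries. The values are not centred, and the median log2 ratio of all 122 microRNAs tested in ovaries was -0.39. miR-312-3p was least apart in ovaries, at 17973.7 RPM in Z56 and 22376 RPM in Canton-S.

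Of the 4 testis clusters, 3 differed by less than 1.2-fold as sums, and the cluster of miR-991 and miR-992 was 3.10-fold lower in Z56. The miR-959 to miR-964 cluster, also known for daily rhythms in the adult fat body, made up 3.79% of reads in Z56 and 3.45% in Canton-S testes. Of its 12 arms, 11 lay within 2-fold, with miR-959-3p at 10121 reads in Z56 and 7848 reads in Canton-S and miR-964-5p at 23699 reads in Z56 and 22198 reads in Canton-S. miR-959-5p and miR-962-3p had log2 ratios of 0.46 and 0.40. The exception was miR-963-3p, with 38 reads in Z56 and 680 reads in Canton-S testes, 17.7-fold lower in Z56 (12.8 to 25.2). Its partner miR-963-5p had 883 reads in Z56 and 815 reads in Canton-S, a ratio of 1.09 whose interval (0.994 to 1.21) included no difference. The median log2 ratio of this cluster was 0.17, and -0.04 without the 10 most abundant microRNAs in the totals.

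The miR-972 to miR-979 cluster had the same form. It made up 0.541% of reads in Z56 and 0.467% in Canton-S testes, and 11 of its 12 tested arms lay within 2-fold. miR-979-5p had 0 reads in Z56 and 108 reads in Canton-S testes, at least 35.6-fold lower in Z56 when 3 reads are set for Z56, while the exact counting interval reached down to 28.5-fold. Its partner miR-979-3p had 321 RPM in Z56 and 215 RPM in Canton-S, 1.49-fold higher. miR-973-3p and miR-977-5p had log2 ratios of -0.86 and -0.82, which were -1.06 and -1.02 without the 10 most abundant microRNAs in the totals. In each of these clusters the largest ratio was thus that of 1 arm whose partner lay within 2-fold.

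The miR-982 to miR-985 cluster, with miR-303 and miR-2499 counted in, made up 4.72% of reads in Z56 and 5.53% in Canton-S testes. Its abundant arms stayed within 2-fold, with miR-982-5p at 32435 reads in Z56 and 30376 reads in Canton-S and miR-985-3p at 17876 reads in Z56 and 32221 reads in Canton-S. Without the 10 most abundant microRNAs in the totals the log2 ratio of miR-985-3p was -1.04, past 2-fold. Past 2-fold as deposited were 3 scarce arms of the 12. miR-303-3p had 12 reads in Z56 and 49 in Canton-S and miR-984-3p 35 in Z56 and 79 in Canton-S, while miR-985-5p had 16 in Z56 and 5 in Canton-S. miR-2499-3p had 73 reads in Z56 and 41 reads in Canton-S (log2 ratio 0.85). The miR-991 and miR-992 cluster, counted with miR-2498, stood lower in Z56, at 0.452% of reads in Z56 and 1.40% in Canton-S testes. Most of its reads were of miR-991-3p, with 5361 reads (3847 RPM) in Z56 and 19253 reads (13671 RPM) in Canton-S, 3.55-fold lower (3.45 to 3.66). miR-991-5p ran the other way, with 412 reads in Z56 and 116 reads in Canton-S, 3.59-fold higher (2.91 to 4.45). miR-2498-3p was 2.14-fold higher, at 372 reads in Z56 and 176 reads in Canton-S, a log2 ratio of 1.09 that was 0.98 with TMM scaling, and miR-992-3p had 17 reads in Z56 and 9 reads in Canton-S. Across the 42 tested arms of all 4 clusters, 3 were higher and 5 lower past 2-fold, against 17.2% and 8.33% of all 204, and without the 10 most abundant in the totals 2 were higher and 8 lower.

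**Figure D3:**
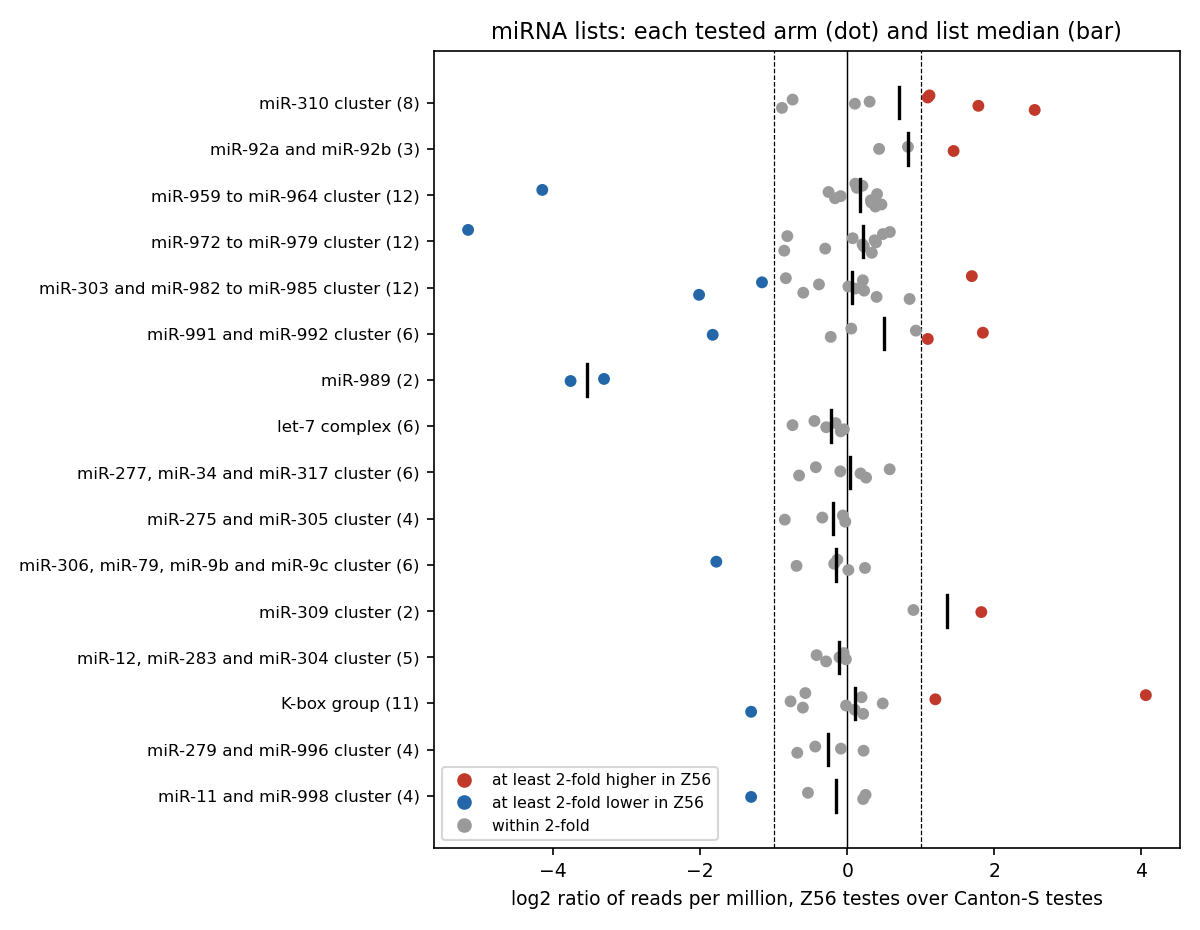
log2 ratio of RPM, Z56 testes over Canton-S testes, for each tested arm (dot) of 16 microRNA lists, with the list median as a black bar and the number of tested arms in brackets; dashed lines mark 2-fold. Most clusters lie within 2-fold, with miR-963-3p, miR-979-5p and both miR-989 arms far to the left and miR-310-3p and miR-308-3p to the right.

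Lists of broadly used microRNAs were mostly within 2-fold. All 6 arms of the let-7 complex, whose let-7, miR-100 and miR-125 come from a shared transcript, had log2 ratios below 0, with 0 past 2-fold and a median of -0.22. Among them miR-100-5p was at -0.74 and miR-125-5p at -0.45. The cluster of miR-277, miR-34 and miR-317 had 0 of 6 past 2-fold, with miR-277-5p at -0.65 and miR-34-3p at 0.58. Its median log2 ratio was 0.04, and -0.07 with TMM scaling. The clusters of miR-275 and miR-305 (4 arms), miR-12, miR-283 and miR-304 (5 arms) and miR-279 and miR-996 (4 arms), the last known from carbon dioxide sensing neurons, had none past 2-fold and medians of -0.20, -0.11 and -0.26. In the cluster of miR-306, miR-79, miR-9b and miR-9c, miR-9c-3p had 17 reads in Z56 and 59 reads in Canton-S testes, the 1 of 6 arms past 2-fold, and miR-79-3p stood at a log2 ratio of -0.69.

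The K-box group, known for repressing proapoptotic genes, was counted here with both arms of each precursor. Of its 11 tested arms, 2 were higher and 1 lower, near the shares of 17.2% and 8.33% among all 204. The 2 higher were 3p arms and the 1 lower was a 5p arm. miR-2b-3p had 2465 reads in Z56 and 1086 reads in Canton-S testes, 2.29-fold higher (2.13 to 2.47), a log2 ratio of 1.20 that was 0.99 without the 10 most abundant in the totals, whereas its near-identical relative miR-2a-3p had a log2 ratio of 0.48, and reads could be split between them. miR-308-3p had 33 reads in Z56 and 2 reads in Canton-S, 16.7-fold higher (4.26 to 143), and miR-11-5p had 4 reads in Z56 and 10 reads in Canton-S, with an interval of the ratio (0.0925 to 1.40) that included no difference. The group's median log2 ratio was 0.10, and -0.01 with TMM scaling. miR-11-5p was also the 1 of 4 arms past 2-fold in the cluster of miR-11 and miR-998, where miR-998-5p stood at -0.53. Of the miR-309 cluster, which clears maternal messages in the embryo, miR-5-5p had 1017 reads in Z56 and 551 reads in Canton-S and miR-286-3p 14 in Z56 and 4 in Canton-S, and no other arm reached 10 reads. Among 53 tested arms of other single genes, 13 were higher and 1 lower, with a median of 0.24, against 17.2%, 8.33% and 0.07 for all 204. These included miR-276a-3p, known from olfactory memory, with 6091 reads in Z56 and 2345 reads in Canton-S (2.62-fold, 2.50 to 2.75). Reads could be split with its relative miR-276b-3p, which had 19 reads in Z56 and 6 reads in Canton-S testes, few beside those of miR-276a-3p. The higher arms also included miR-278-3p, known from energy balance, with 127 reads in Z56 and 35 reads in Canton-S (3.67-fold).

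Arm use was compared for 85 precursors with at least 50 reads over both arms in each testis library. This measure does not depend on library totals. The mapper and its mismatch limit were not found, so an effect of strain sequence differences on counts of single arms was not tested. The 5p share of the reads of both arms differed by a median of 0.722 percentage points in size, and by less than 1 point in 46 precursors. It differed by 10 points or more in 10 precursors (11.8%), 5 toward 5p and 5 toward 3p in Z56. The more abundant arm was the same in 82 of the 85. In 24 of these precursors an arm had a ratio of at least 2-fold, here counted without the minimum of 10 reads for the arm. miR-304-3p, miR-972-5p and miR-31a-3p, counted among them, had fewer than 10 reads in each testis library. Of the 24, both arms passed in the same direction in 4 and in opposite directions in 1, miR-991.

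The largest difference in arm use was that of miR-963, whose 5p share was 95.9% in Z56 testes (94.4 to 97.1, exact Clopper-Pearson 95% interval) and 54.5% in Canton-S testes (52.0 to 57.1). miR-311 had a 5p share of 24.3% in Z56 and 50.7% in Canton-S. miR-979 had a share of 0% in Z56, 0 of 448 reads, which allows up to 0.820%, and of 26.3% in Canton-S. For miR-2498 the share was 20.2% in Z56 and 38.7% in Canton-S. miR-277 had 46.6% in Z56 and 62.1% in Canton-S. The dominant arm differed for miR-311, miR-277 and miR-1003, the last with 57.1% in Z56 and 42.5% in Canton-S. For miR-311 the Canton-S share, and for miR-277 the Z56 share, lay close to equal use, and the intervals of miR-1003 overlapped (49.1 to 64.8 in Z56, 35.2 to 50.1 in Canton-S). miR-92a had a 5p share of 24.2% in Z56 and 39.2% in Canton-S testes.

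**Figure D4:**
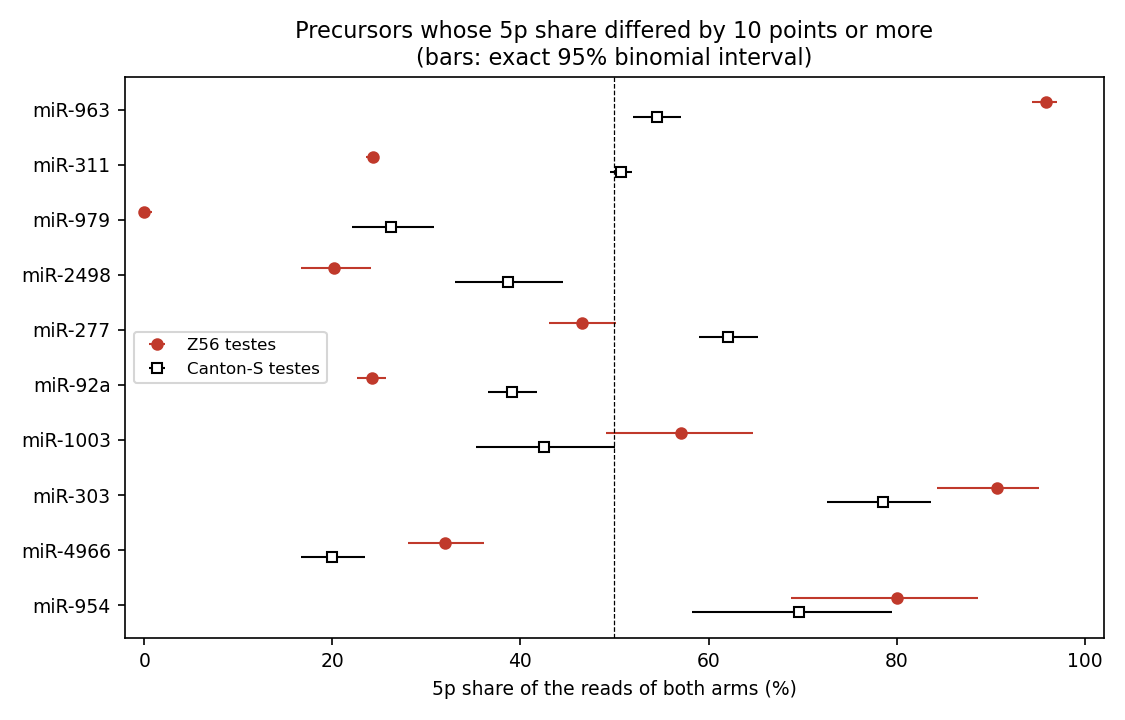
5p share of the reads of both arms (%), in Z56 testes (filled circles) and Canton-S testes (open squares), for the 10 precursors that differed by 10 points or more; bars are exact 95% binomial intervals. miR-963, at 95.9% and 54.5%, has the widest gap and miR-954 the narrowest; the intervals of miR-954 and miR-1003 overlap.

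MicroRNAs typical of other tissues were examined in the testis libraries. A carcass list held 21 microRNAs with at least 100 RPM in Canton-S carcass and at least 10-fold less in both ovary libraries, chosen without testis values. Its summed level was 24790.4 RPM in Z56 testes and 22704 RPM in Canton-S testes. Of its 17 tested members, 5 were higher and 2 lower past 2-fold, with a median log2 ratio of 0.26, against 17.2%, 8.33% and 0.07 for all 204. The 5 were miR-124-3p, miR-957-3p, miR-276b-3p and both arms of miR-993, which had 1034 and 346 RPM in carcass, and the 2 were miR-958-5p and miR-932-5p. Several of these reached 10 reads in a single testis library, where the minimum itself favours a difference. They were miR-957-3p (13 reads in Z56, 3 in Canton-S), miR-276b-3p (19 in Z56, 6 in Canton-S) and miR-993-5p (30 in Z56, 3 in Canton-S). miR-932-5p, with 5 reads in Z56 and 21 in Canton-S, was another. miR-375-3p and miR-10-3p, the members most abundant in testes, had log2 ratios of 0.51 and -0.03. The muscle markers miR-1-3p and miR-133-3p were 1.08-fold and 1.10-fold higher in Z56, the second on 37 reads in Z56 and 34 reads in Canton-S. The part of other tissues in the differences of miR-124-3p, miR-993 and miR-958 was not tested. In bulk tissue, fewer cells of a type and less RNA per cell cannot be told apart.

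An ovary list held 18 microRNAs with at least 100 RPM in both ovary libraries and at least 10-fold less in carcass. Of its 16 tested members, 4 were higher and 2 lower past 2-fold, with a median log2 ratio of 0.20, beside the same 17.2%, 8.33% and 0.07. The 4 were miR-310-3p, miR-311-3p, miR-313-5p and miR-92a-3p, which are members of the families above, and the 2 were miR-989-3p and miR-9c-3p. miR-13b-3p and miR-9c-5p, also of this list, had log2 ratios of 0.10 and -0.14.

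The same contrast in ovaries showed which differences were found in both gonads. Of 122 microRNAs tested in ovaries, 42 (34.4%) passed 2-fold, 7 (5.74%) higher and 35 (28.7%) lower in Z56, with a median log2 ratio of -0.39. In the 119 tested in both tissues, 22 passed in testes and 41 in ovaries, and 15 passed in both, which is 68.2% of the testis set and 36.6% of the ovary set. Of the 15, 8 had the same direction and 7 the opposite. The same direction was shown by both arms of miR-986 and miR-281-3p, higher in Z56, and by miR-963-3p, miR-927-5p, miR-966-5p, miR-989-5p and miR-9c-3p, lower in Z56. In ovaries miR-281-3p had 12 reads in Z56 and 3 reads in Canton-S, with an interval (0.639 to 13.1) that included no difference. miR-963-3p had 0 reads in Z56 ovaries and 12 reads in Canton-S ovaries. miR-927-5p had 0 reads in Z56 ovaries and 25 reads in Canton-S ovaries. miR-986-3p had 26 reads in Z56 ovaries and 6 reads in Canton-S ovaries. In ovaries miR-281-3p, miR-963-3p, miR-927-5p and miR-986-3p thus reached 10 reads in 1 library alone, where the minimum itself favours a difference. In testes this held for miR-989-5p (1 read in Z56, 10 in Canton-S) and miR-927-5p (1 read in Z56, 27 in Canton-S). miR-966-5p had 12 reads in Z56 testes and 98 reads in Canton-S testes, and 15 reads in Z56 ovaries and 47 reads in Canton-S ovaries. miR-989-3p was lower in Z56 testes but not in ovaries, where it had 73036.5 RPM in Z56 and 43230.4 RPM in Canton-S.

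The opposite direction was shown by 7 3p arms, all higher in Z56 testes and lower in Z56 ovaries. miR-310-3p had 1111 RPM in Z56 ovaries and 5369 RPM in Canton-S ovaries, 4.83-fold lower (4.45 to 5.26), beside the 5.85-fold higher value in testes. miR-92a-3p had 2566 RPM in Z56 ovaries and 9706 RPM in Canton-S ovaries, 3.78-fold lower. miR-276a-3p had 1513 RPM in Z56 ovaries and 10154 RPM in Canton-S ovaries, 6.71-fold lower. The others were miR-311-3p, miR-313-3p, miR-2b-3p and miR-1010-3p. Of these miR-313-3p had 9 reads in Z56 ovaries and 51 reads in Canton-S ovaries, so it reached the minimum of 10 in Canton-S ovaries alone. With ratios centred on the median of each tissue, an alternative chosen after the values were seen, 7 microRNAs again ran opposite ways, of which 5 were shared. miR-311-3p and miR-1010-3p dropped out, and miR-989-3p and miR-991-3p entered. In ovaries miR-991-3p had 12 reads in Z56 and 4 reads in Canton-S, and the interval of its uncentred ratio (0.538 to 7.55) included no difference. The 5p shares of miR-311, miR-277 and miR-92a, lower in Z56 than in Canton-S testes, were higher in Z56 ovaries, at 40.7%, 59.2% and 21.5%, than in Canton-S ovaries, at 26.0%, 41.9% and 7.37%. For miR-277 the ovary shares rested on 71 reads in Z56 and 62 reads in Canton-S, and their intervals overlapped (46.8 to 70.7, 29.5 to 55.2). Of 47 precursors with at least 50 reads in all 4 gonad libraries, 3 differed by 10 points or more in testes and 6 in ovaries. Those 3 were the ones past 10 points in both tissues. With 1 library per strain and tissue, these tissue differences have no replicate.

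**Figure D5:**
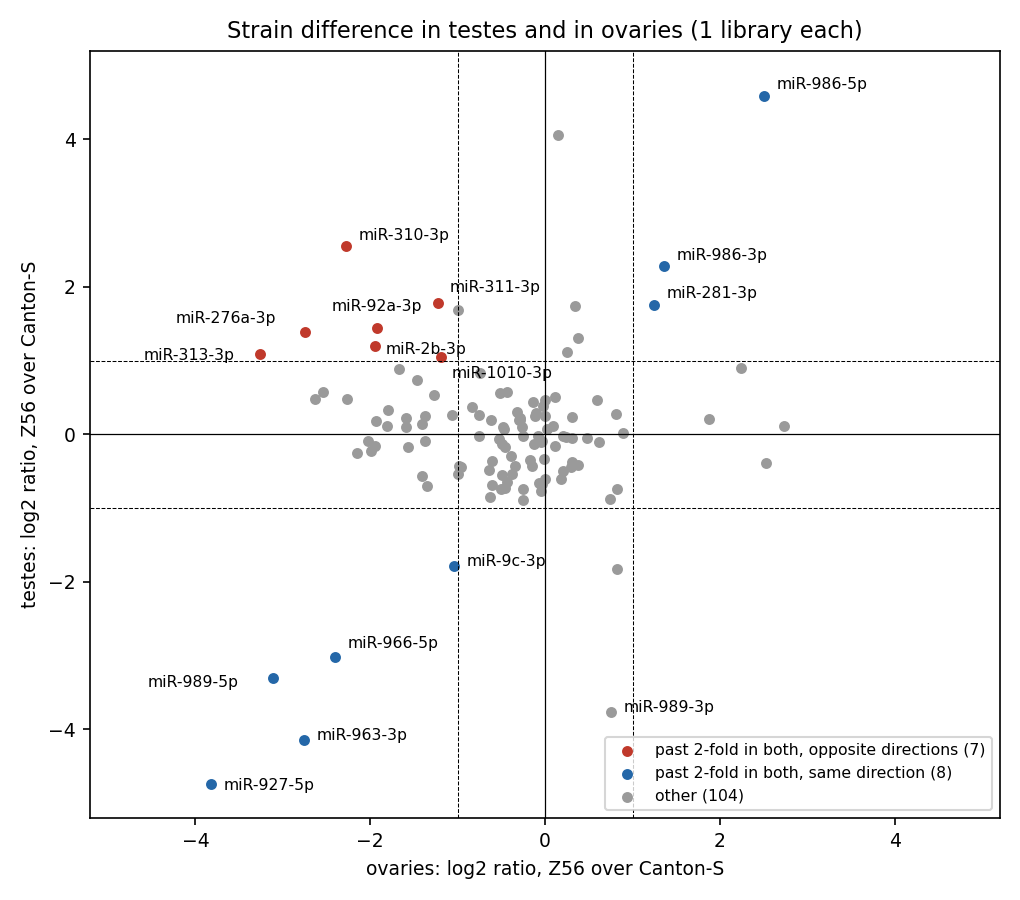
log2 ratio of Z56 over Canton-S in testes (vertical) and in ovaries (horizontal) for 119 microRNAs tested in both tissues, 1 library per strain and tissue; dashed lines mark 2-fold. miR-986-5p lies far toward Z56 in both tissues, miR-963-3p and miR-927-5p toward Canton-S in both, and 7 3p arms lie in the upper left, higher in Z56 testes and lower in Z56 ovaries.

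Large ratios were more frequent among scarce microRNAs. Of the 43 compared below 20 RPM, as the mean of the testis libraries, 48.8% passed 2-fold, against 23.2% of 56 from 20 to 100 RPM, 17.6% of 51 from 100 to 1000 RPM and 16.7% of 54 above that. Those tested in testes but not in ovaries, 85 in all, passed in 35.3%, against 18.5% of the 119 tested in both. The minimum of reads itself favours a difference in microRNAs that reached 10 reads in a single testis library. There were 29 of these, and 21 of them passed 2-fold. How much of these 2 contrasts comes from the minimum was not tested. By the RefSeq gene table (Release 6), 255 of 256 precursors were matched to a gene, and 87 had another microRNA gene within 10 kb. Mature microRNAs with such a neighbour passed 2-fold in 18.4% of 114, those without in 34.1% of 88. These shares were not tested.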

How the data were processed

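For each mature microRNA of each precursor the authors deposited a read count and an RPM value, per the file headers. RPM recomputed from count and column total lay within 0.005 of the deposited RPM. TopHat is named without a role in the submitters' processing notes; no mapper for small RNAs, mismatch limit or genome build was found in the sources used here, so no coordinates are given. The planned sums by seed sequence were not run, since no sequence table was used here. Names listed at several precursors (9) were merged at their highest count, and miR-276a-5p and miR-276b-5p, with equal counts, were taken as 1. Totals were 1393727 reads for Z56 testes and 1408300 for Canton-S testes. Ratios are of RPM; a count of 0 was set to 3 reads for log2 ratios. Intervals are exact (scipy 1.17.1, tested on simulated data). edgeR 4.0.16 (TMM) and DESeq2 1.42.0 (size factors) gave alternative scalings. A difference counts past 2-fold with at least 10 reads in 1 library.

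MicroRNAs were named by rule: arms of the miR-310 cluster, miR-92a and miR-92b, the 10 most abundant per library, the 10 largest ratios per direction with at least 100 reads, ranked by the counting bound nearest to no difference, up to 4 per list, and the 5 largest differences in arm use. Those outside it were chosen after their values were seen. The comparison and the lists were chosen with earlier results of these data known.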

Additional observations from a re-analysis of the deposited data

Results flagged for a closer look

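The strain ratio ran in opposite directions in testes and ovaries, past 2-fold in both, for 7 microRNAs. The difference between the tissues was not tested, since each strain and tissue has 1 library. The log2 ratios of Z56 over Canton-S were 2.55 in testes and -2.27 in ovaries for miR-310-3p. They were 1.78 in testes and -1.23 in ovaries for miR-311-3p. For miR-313-3p, on at most 51 reads a library and 9 in Z56 ovaries, they were 1.09 in testes and -3.26 in ovaries. miR-92a-3p stood at 1.45 in testes and -1.92 in ovaries. miR-276a-3p stood at 1.39 in testes and -2.75 in ovaries, and miR-2b-3p at 1.20 in testes and -1.94 in ovaries. miR-1010-3p had 1.05 in testes and -1.19 in ovaries. The ovary libraries held 683275 reads in Z56 and 404183 reads in Canton-S. In ovaries the median log2 ratio of all 122 tested was -0.39. With ratios centred on the median of each tissue, miR-311-3p and miR-1010-3p dropped out of the 7. In testes the ratios of miR-313-3p and miR-1010-3p fell short of 2-fold with TMM scaling, at 0.98 and 0.94, and without the 10 most abundant microRNAs in the totals miR-2b-3p did too, at 0.99.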

How the results depend on the processing

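The count past 2-fold was 51 with TMM scaling (31 higher and 20 lower in Z56), 54 with DESeq2 size factors, 66 without a minimum of reads and 54 over all deposited rows, against 52. Of the 52, 48 remained with TMM and 52 with DESeq2 size factors. The DESeq2 size factors were 1 in both libraries, so that setting compared raw counts and moved the median log2 ratio by only -0.015. TMM moved the median of all tested microRNAs by -0.11 on the log2 scale and the totals without the 10 most abundant moved it by -0.21, which gave 26 lower in Z56 in place of 17, with 45 of the 52 kept. That setting also gave 3 arms past 2-fold in the miR-972 to miR-979 cluster and 1 in the cluster of miR-275 and miR-305, and moved the miR-982 to miR-985 cluster to 4 from 3, the miR-991 cluster to 2 from 3 and the miR-310 cluster to 3 from 4. With at least 100 reads in 1 library, 24 of 123 passed, 19 higher and 5 lower. Fewer microRNAs are tested there, and list counts became 0 for the miR-982 to miR-985 cluster, the cluster of miR-306, miR-79, miR-9b and miR-9c, the miR-309 cluster and the cluster of miR-11 and miR-998, 1 for miR-989, 1 for the K-box group and 8 for other single genes. With the whole counting interval past 2-fold, 30 passed, 21 higher and 9 lower, which is the limit that depth sets. Opposite directions in testes and ovaries counted 7 and same directions 7 with centred ratios, against 7 and 8. The 10 precursors that differed in arm use became 7 of 63 with at least 200 reads and stayed 10 with rows of a name summed. No paired analysis was possible because the strains have 1 library each and their labels carry no replicate numbers.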
